A study of Mus musculus with 21 samples.

Results

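The genes described here encode the metalloproteases of the ADAM, ADAMTS and MMP families, the ADAMTS-like proteins and the TIMP inhibitors. They were taken from the deposited table by symbol, as protein-coding rows named Adam, Adamts, Adamtsl or Mmp with a number, and Timp1 to Timp4. This gave 65 of 31883 genes: 22 ADAM, 19 ADAMTS, 5 ADAMTS-like, 15 MMP and 4 TIMP genes. Their RNA was compared between the subcommissural organ (SCO), a gland of secretory ependyma above the rear of the third ventricle, and the hippocampus of C57BL/6 mice on postnatal day 0 (P0). The groups were 4 SCO and 5 hippocampus libraries of bulk RNA, and no genotype or treatment is given for either tissue. The series also holds 12 samples of postnatal day 60, 6 of each tissue, which were not analysed here. Whether each sample is 1 animal or a pool is not given in the labels, so the p-values below reflect only how far these samples spread, which may be a technical spread.

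ADAM proteases sit in the cell membrane and release the outer parts of other membrane proteins, such as growth factor precursors, Notch and adhesion molecules. ADAMTS proteases are secreted and cut matrix proteins, among them the hyaluronan-binding proteoglycans of the brain and procollagens, and ADAMTS-like proteins share their matrix-binding domains without the protease domain. MMPs cut matrix and surface proteins, and some are anchored to the membrane. TIMPs block MMPs and, in the case of Timp3, several ADAM and ADAMTS proteases as well.

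The active site of these enzymes holds a zinc ion on 3 histidines, in a stretch of histidine, glutamate, any 2 residues, histidine, any 2 residues, glycine, any 2 residues and histidine. GENCODE M21 reading frames (build GRCm38) code for this stretch in 39 of the 65 genes: in 15 of 15 MMP, 13 of 19 ADAMTS and 11 of 22 ADAM genes. Another 6 ADAMTS genes, Adamts9 among them, code for it with a different residue in place of the glycine. The remaining 20 genes have neither form, among them the 4 TIMP and 5 ADAMTS-like genes and the neural ADAM genes Adam11, Adam22 and Adam23. The coding stretches of the 8 enzymes that the comparison below turns on show this division. Capitals mark the codons of the fixed residues, and each stretch of 33 bases is written 5′ to 3′ on the coding strand.
Adam10: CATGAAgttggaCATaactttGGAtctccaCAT
Adam17: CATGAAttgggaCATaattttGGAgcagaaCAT
Adam9: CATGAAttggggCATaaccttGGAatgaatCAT
Adamts18: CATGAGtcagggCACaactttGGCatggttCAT
Adamts9: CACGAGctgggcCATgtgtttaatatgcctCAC
Mmp17: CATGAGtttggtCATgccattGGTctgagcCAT
Mmp19: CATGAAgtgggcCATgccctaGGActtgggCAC
Mmp2: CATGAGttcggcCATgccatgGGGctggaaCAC
In Adamts9 the codon aat stands where the others carry a glycine codon.

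Values are normalized counts, reads of a gene over the size factor of its library. The libraries held between 35379988 and 64242533 reads in SCO and between 36787949 and 151009954 in hippocampus. The 4 listed SCO markers found in the table, Sspo among them, summed to between 14509 and 36859 normalized counts in SCO and between 873.9 and 2161 in hippocampus. The excitatory neuron markers of hippocampus and cortex summed to between 2546 and 5517 in SCO and between 92226 and 107909 in hippocampus. Other cell types also differed: habenular, thalamic and pretectal neuron markers summed to between 54543 and 87951 in SCO and between 2969 and 5819 in hippocampus. Choroid plexus markers summed to 237225 in SCO replicate 4 and to between 25133 and 27641 in the other SCO libraries, against between 4549 and 16798 in hippocampus. In SCO replicates 1 to 3 most of this sum came from Otx2 and Enpp2. Ttr, also on this list, had 560, 403, 108 and 171311 in SCO, against 2133, 12985, 2.06, 0 and 7234 in hippocampus. Of the 9 choroid plexus markers tested, 1 passed as higher in SCO and 0 as lower. Across genes, the correlation of log2 values between libraries of 1 tissue was between 0.8128 and 0.8276 in SCO and between 0.8239 and 0.8708 in hippocampus. Between an SCO and a hippocampus library it was between 0.7683 and 0.816, which overlaps the range within SCO. The member count is also given without both hippocampus replicate 2 and SCO replicate 4, a pair chosen with earlier results of these data known.

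No member passed the test: of 63 genes with a mean of at least 1 normalized count in either tissue, 0 had an adjusted p under 0.05 in limma-trend on log2(value + 1), with Benjamini-Hochberg adjustment over all genes. Among all 28150 genes tested, 3.05% passed. At an unadjusted p under 0.05, 14 members differed, 5 higher and 9 lower in SCO, while 15.5% of all genes did so, 8.33% higher and 7.14% lower. EdgeR's quasi-likelihood test on the recovered reads also gave 0 members (1.79% of all genes), with 11 at an unadjusted p under 0.05, 5 higher and 6 lower in SCO (19.5% of all genes, 12.1% higher and 7.39% lower). DESeq2 on the same reads gave 5 of the 48 members for which it returns an adjusted p, against 12.6% of all genes. In the authors' deposited table the same 5 genes have an adjusted p under 0.05, of 48 members with a value, against 12.7% of all genes there. They are Adam17, Mmp19 and Adamtsl3, higher in SCO, and Adamts18 and Adam18, lower in SCO. Of all genes, DESeq2 called 6.97% higher and 5.67% lower in SCO, and the authors' deposited table has 6.98% higher and 5.69% lower. Without both hippocampus replicate 2 and SCO replicate 4, limma called 1 member, Adamts18.

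The median log2 fold change of the 63 members was -0.34, against -0.04 for all genes tested, with 28 positive and 35 negative. By family the medians were -0.54 for ADAM, -0.60 for ADAMTS, -0.41 for ADAMTS-like, 0.77 for MMP and 0.67 for TIMP genes. The values of the tissues did not overlap for 4 members, Adam17, Mmp19 and Adamts9 with higher and Adamtsl2 with lower values in SCO, which is 6.35% of the members, while 8.53% of all genes tested had no overlap, 4.78% higher and 3.75% lower. In bulk samples, fewer cells of a type and less RNA per cell cannot be told apart.

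**Figure D1:**
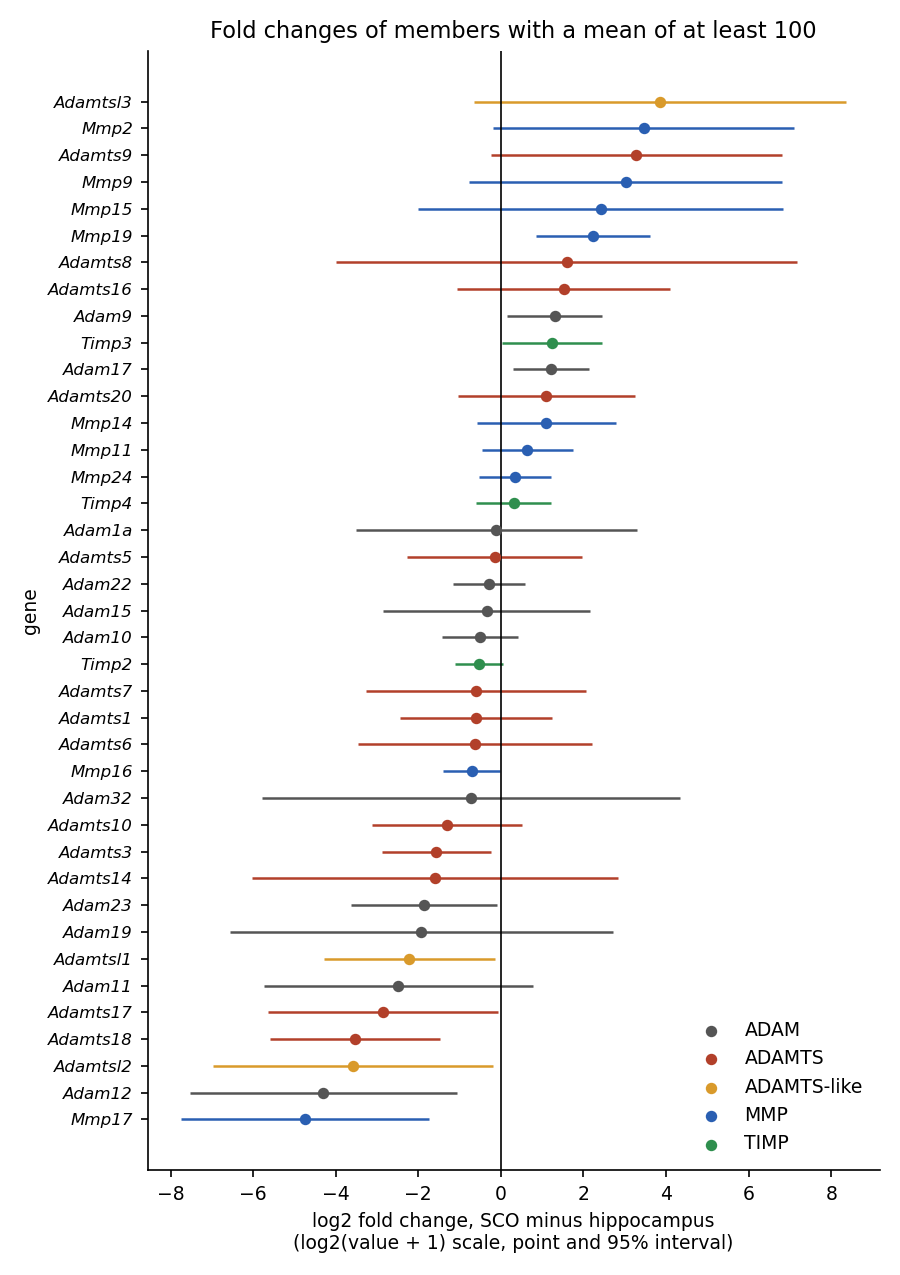
Difference of mean log2(value + 1), SCO minus hippocampus, for the 39 members with a mean of at least 100 normalized counts over the 9 libraries; points are limma estimates, lines their 95% intervals before adjustment for multiple tests, and colours the families. The intervals of 4 genes lie above 0 and those of 9 genes below 0, and most others span 0 widely.

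Among the membrane sheddases, Adam17, which releases tumour necrosis factor and ligands of the epidermal growth factor receptor, had 5083, 2968, 5883 and 3536 normalized counts in SCO replicates 1 to 4, against 2059, 698, 2248, 2254 and 2646 in hippocampus replicates 1 to 5. Every SCO library lay above every hippocampus library. The mean was 4368 ± 1349 in SCO (SD, n = 4) and 1981 ± 748 in hippocampus (SD, n = 5), a log2 fold change of 1.22 (SE 0.42, adjusted p = 0.170 in limma). The gene (ENSMUSG00000052593.16) spans bases 21323509 to 21373632 of chromosome 12, minus strand, in GRCm38. Its exons overlap those of Iah1 on the other strand by up to 311 bases, and Iah1 had 1474 ± 763 in SCO and 1753 ± 848 in hippocampus.

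Adam9, another sheddase of broad expression, had 2257, 2645, 4778 and 2058 normalized counts in SCO, against 1519, 603, 2808, 1339 and 513 in hippocampus. Hippocampus replicate 3 reached the SCO range. The log2 fold change was 1.30 (SE 0.52, adjusted p = 0.252 in limma).

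Adam10, the sheddase of Notch and of the amyloid precursor protein, had 1016, 1993, 4056 and 3257 in SCO, against 5181, 2565, 2632, 3161 and 3230 in hippocampus. The tissues overlapped, and the log2 fold change of -0.51 had a 95% interval of -1.43 to 0.41 (adjusted p = 0.596 in limma). Per kb of exon, the scale on which genes can be set side by side, SCO held 713 of Adam9, 611 of Adam17 and 525 of Adam10, and hippocampus 330 of Adam9, 277 of Adam17 and 683 of Adam10. By these means Adam10 ranked first among the 3 in hippocampus and last in SCO, but the order did not hold in every library. Per kb, Adam10 lay above both others in SCO replicate 4 and about level with Adam17 in SCO replicate 3. Adam9 lay above Adam10 in hippocampus replicate 3. The SCO library range of Adam10 covers most of its hippocampus values.

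Adam12, a sheddase of muscle and bone development, had 52.2, 195, 0 and 5.60 normalized counts in SCO, against 86.1, 281, 880, 254 and 601 in hippocampus. Its log2 fold change of -4.30 (SE 1.46, adjusted p = 0.166 in limma) rests on SCO libraries at or near 0, and SCO replicate 2 lay within the hippocampus range. It was named after its values were seen.

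Of the ADAM proteins without the zinc stretch, Adam11, Adam22 and Adam23 are surface proteins of neurons, and Adam22 and Adam23 bind the secreted LGI proteins. Adam22 had 812, 2329, 1293 and 2169 normalized counts in SCO, against 2376, 1646, 1312, 1557 and 2749 in hippocampus, a log2 fold change of -0.29 with a 95% interval of -1.16 to 0.58. Adam23 had 50.7, 456, 510 and 259 in SCO, against 376, 664, 618, 1036 and 2905 in hippocampus (log2 fold change -1.86, SE 0.80, adjusted p = 0.294 in limma). Its SCO libraries were low, yet 2 of them lay above hippocampus replicate 1.

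Adam11 varied widely within SCO, with 4.48, 1843, 69.4 and 953 normalized counts, against 366, 759, 1073, 1664 and 1198 in hippocampus. The SCO range covers the whole hippocampus range, and the limma adjusted p was 0.474.

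The other ADAM genes are known mainly from sperm and the male reproductive tract, and 2 of the 11 had a mean of at least 100 over all libraries. Adam1a, a sperm surface protein gene, had 680, 604, 561 and 26.9 in SCO and 764, 781, 651, 938 and 6.47 in hippocampus. Its read count equals that of the overlapping gene Gm42878 in 9 of 9 libraries, so both rows report the same reads. Exons of Mapkapk5 on the same strand overlap Adam1a by up to 318 bases. Mapkapk5 had equal reads in 3 of 9 libraries, among them SCO replicate 4 and hippocampus replicate 5. Tmem116 on the other strand overlaps by up to 848 bases and had at least as many reads in 9 of 9 libraries. The reads of Adam1a and of these genes cannot be told apart.
Adam18 had 0 reads in all 4 SCO libraries and 0, 0, 234, 181 and 0.381 normalized counts in hippocampus. Its deposited log2 fold change of -22.99 in the authors' deposited table rests on 2 hippocampus libraries, and the limma adjusted p was 0.467. Adam32 had 0, 685, 0 and 0 in SCO and 1.25, 3.30, 264, 0 and 15.6 in hippocampus, and Adam3 had 0, 165, 226 and 109 in SCO and 0, 0, 0, 61.4 and 0 in hippocampus. Adam32 exceeded 100 in 1 library of each tissue, and Adam3 did so in 3 SCO libraries and in no hippocampus library (log2 fold change of Adam3 4.30, SE 1.92, adjusted p = 0.315 in limma).

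**Figure D2:**
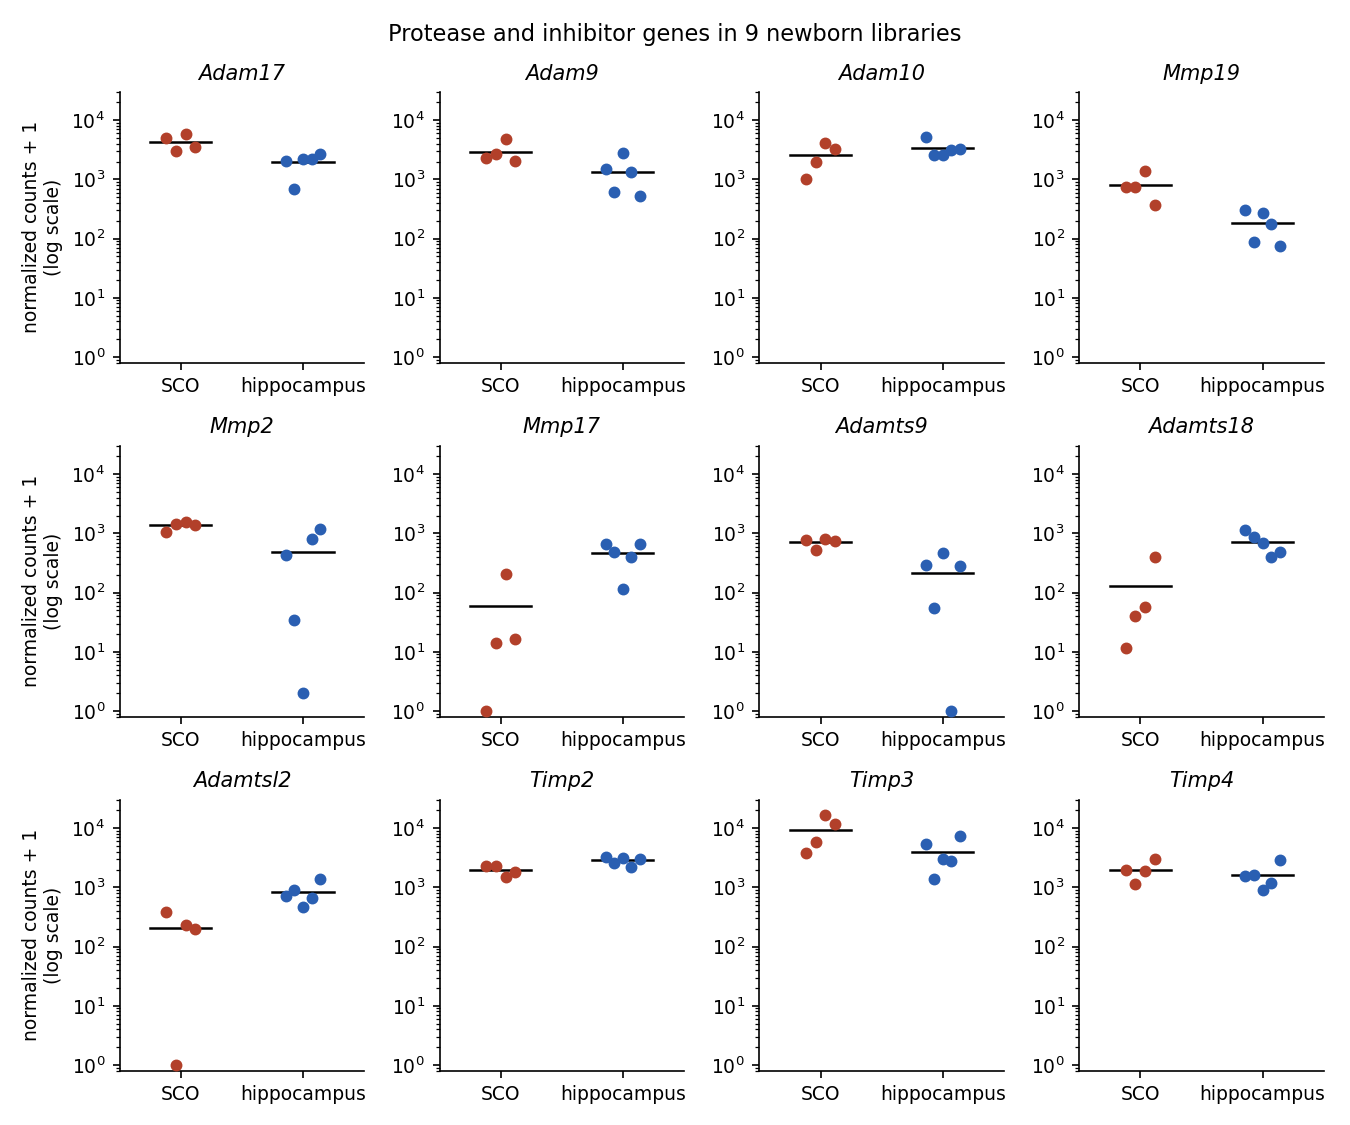
Normalized counts plus 1 on a log axis for 12 members in each library; each point is 1 library and each line the mean of a tissue, with SCO on the left and hippocampus on the right. Adam17, Mmp19 and Adamts9 lie higher in every SCO library than in any hippocampus library, Adamtsl2 lies lower, and the points of Adam10, Timp2, Timp3 and Timp4 overlap.

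Among the ADAMTS enzymes, those that cut hyaluronan-binding proteoglycans are Adamts1, Adamts4, Adamts5, Adamts8, Adamts9, Adamts15 and Adamts20. Their fold changes were positive for 5 and negative for 2, with a median of 1.59 on the log2 scale, and 0 reached an unadjusted p of 0.05. Adamts9 had 776, 533, 809 and 746 normalized counts in SCO, against 286, 54.5, 458, 0 and 279 in hippocampus. The SCO libraries lay close together and above all hippocampus libraries, while the hippocampus ones spread down to 0. The log2 fold change was 3.28 (SE 1.59, adjusted p = 0.358 in limma), and the ratio of the means was 3.32. Exons of A730049H05Rik on the other strand overlap Adamts9 by up to 1215 bases, and that gene had 165 ± 175 in SCO and 8.83 ± 19.1 in hippocampus.

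Adamts1 had 524, 1516, 440 and 86.2 in SCO and 672, 180, 1015, 1207 and 692 in hippocampus, with overlap throughout. Adamts4 had 1.49, 79.7, 118 and 86.2 in SCO and 8.74, 3.30, 37.2, 2.56 and 0.761 in hippocampus. In 3 of the 4 SCO libraries Adamts4 lay above every hippocampus library, and SCO replicate 1 was among the lowest of the 9 (adjusted p = 0.443 in limma). Adamts20, which mouse melanoblasts need, had 184, 1072, 184 and 413 in SCO and 49.9, 62.7, 212, 148 and 1123 in hippocampus. Adamts8 was at 0 in SCO replicate 4 and in hippocampus replicate 2 and reached 594 in SCO and 557 in hippocampus. Exons of Gm29724 on the other strand overlap Adamts8 by up to 305 bases. Gm29724 had at least as many reads as Adamts8 in 7 of 9 libraries, so their reads cannot be told apart.

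The procollagen N-proteinases are Adamts2, Adamts3 and Adamts14. Adamts2 and Adamts3 also cut and inactivate reelin in the mouse brain. Adamts3 had 291, 67.9, 437 and 210 normalized counts in SCO, against 579, 418, 480, 861 and 854 in hippocampus. SCO replicate 3 alone reached the lowest hippocampus value, and the log2 fold change was -1.56 (SE 0.60, adjusted p = 0.228 in limma). Adamts2 had 68.6, 48.7, 97.7 and 73.9 in SCO, within the hippocampus values of 124, 192, 94.9, 24.5 and 112. Adamts14 was read at 1107 in hippocampus replicate 5 and at 2.24 in SCO replicate 4, and at 0 in the other 7 libraries.

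Adamts18, a secreted protease of eye and lung development, had the lowest adjusted p of the members in limma. It had 10.4, 39.9, 55.7 and 404 normalized counts in SCO replicates 1 to 4, against 1143, 872, 681, 395 and 484 in hippocampus replicates 1 to 5. SCO replicate 4 just exceeded hippocampus replicate 4, and the other 3 SCO libraries lay below all hippocampus libraries. The mean was 128 ± 185 in SCO and 715 ± 302 in hippocampus, a log2 fold change of -3.54 (SE 0.93, adjusted p = 0.0736 in limma). It passed in 1 of the 9 fits with a library left out, at -4.48 without SCO replicate 4 (adjusted p = 0.0130 in limma). Without SCO replicate 1 it was -2.77 (adjusted p = 0.135 in limma), and edgeR gave -2.50 (adjusted p = 0.245). The gene (ENSMUSG00000053399.9) spans bases 113697126 to 113848738 of chromosome 8, minus strand, in GRCm38.

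Adamts7 had 124, 442, 228 and 210 in SCO and 1022, 1141, 367, 777 and 13.7 in hippocampus, where replicate 5 lay below all other libraries. Adamts6, a relative of Adamts10 of the fibrillin microfibrils, had 14.9, 1463, 398 and 1028 in SCO and 287, 913, 476, 125 and 1692 in hippocampus, with full overlap. The remaining ADAMTS genes had limma adjusted p from 0.308 (Adamts17) to 0.950 (Adamts5).

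The ADAMTS-like proteins bind the matrix without cutting it. Adamtsl2, a protein of fibrillin microfibrils, had 388, 0, 228 and 196 normalized counts in SCO, against 710, 913, 470, 667 and 1377 in hippocampus. All SCO libraries lay below all hippocampus libraries, with a log2 fold change of -3.58 (SE 1.53, adjusted p = 0.292 in limma) that is drawn out by the library at 0. The mean was 203 ± 159 in SCO and 827 ± 345 in hippocampus. Adamtsl1 had 20.9, 251, 276 and 909 in SCO and 1293, 1740, 788, 638 and 522 in hippocampus (adjusted p = 0.283 in limma). Adamtsl3 had 791, 0, 0 and 288 in SCO and 0, 0, 2.06, 0 and 1.52 in hippocampus. It was read well in 2 SCO libraries and at 0 in the other 2 (log2 fold change 3.86, SE 2.04, adjusted p = 0.407 in limma).

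Summed per kb of exon, the 15 MMP genes had 2561 ± 302 normalized counts per kb in SCO (SD, n = 4, range 2246 to 2972). Hippocampus had 1614 ± 143 (SD, n = 5, range 1451 to 1783), so that the libraries of the tissues did not overlap on this scale. Summed without the scaling by exon length they did overlap, with 9001 in SCO replicate 1 and 9053 in hippocampus replicate 5. Both sums include bases that Mmp11, Mmp19 and Mmp24 share with genes on the other strand. The sum is a description of chosen genes and was not tested. Microglia and macrophage markers, 8 of 8 in the table and none at 0 in all libraries of a tissue, summed to between 30148 and 41822 normalized counts in SCO and between 11575 and 19981 in hippocampus. Markers of meninges and fibroblasts, 10 of 10 and likewise none at 0, summed to between 1563 and 14280 in SCO and between 2223 and 12850 in hippocampus. Blood markers, 6 of 6 in the table, summed to between 45987 and 79213 in SCO and between 4233 and 27027 in hippocampus, and 4 of 6 passed as higher in SCO. Ependymal and motile cilia markers, 8 of 8 in the table, summed to between 17741 and 33756 in SCO and between 3045 and 6149 in hippocampus, and 5 of 8 passed as higher. Neither list had a marker at 0 in all libraries of a tissue. The part of these cells in the MMP sum was not tested.

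Mmp2 and Mmp9 are the gelatinases, which cut denatured collagen and basement membrane. Mmp2 had 1073, 1450, 1536 and 1392 normalized counts in SCO, against 428, 33.02, 1.03, 812 and 1174 in hippocampus. SCO libraries were alike and hippocampus libraries spread over 3 orders of size, with 1 read in replicate 3, and hippocampus replicate 5 lay above SCO replicate 1. The mean was 1363 ± 202 in SCO and 490 ± 506 in hippocampus, and the log2 fold change was 3.46 with a 95% interval of -0.20 to 7.11 (adjusted p = 0.351 in limma). Mmp9 had 507, 2259, 1165 and 692 in SCO and 529, 185, 687, 381 and 0 in hippocampus (log2 fold change 3.02, SE 1.72, adjusted p = 0.450 in limma).

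Mmp19, which degrades components of basement membranes, had 740, 757, 1390 and 374 normalized counts in SCO, against 300, 87.5, 274, 174 and 74.2 in hippocampus. Every SCO library lay above every hippocampus library, with a mean of 815 ± 422 in SCO and 182 ± 104 in hippocampus. The log2 fold change was 2.23 (SE 0.62, adjusted p = 0.0919 in limma), and no left-out library brought the adjusted p under 0.0894. The gene (ENSMUSG00000025355.7) spans bases 128790910 to 128800824 of chromosome 10, plus strand. Tmem198b and Gm47093 lie on the other strand with exons that overlap those of Mmp19 by up to 789 and 161 bases, and each had at least as many reads as Mmp19 in 9 of 9 libraries. Tmem198b had 1984 ± 851 in SCO and 456 ± 247 in hippocampus. Without a stated strand setting the reads of Mmp19 and of these genes cannot be told apart.

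The membrane-type MMPs, of which Mmp14 activates the precursor of Mmp2, showed no common direction, with 3 positive and 3 negative fold changes. Mmp14 had 821, 998, 397 and 647 normalized counts in SCO, against 207, 94.1, 324, 284 and 1752 in hippocampus. All SCO libraries lay above 4 of the hippocampus libraries and below replicate 5 (log2 fold change 1.10, SE 0.76, adjusted p = 0.549 in limma). Mmp16 had 1432, 2302, 1324 and 2184 in SCO, against 3877, 2734, 3522, 1829 and 2838 in hippocampus (log2 fold change -0.71, 95% interval -1.40 to -0.01, adjusted p = 0.314 in limma). Mmp24, an enzyme of nervous tissue, had 1777, 1549, 2572 and 2523 in SCO and 806, 2435, 2181, 2224 and 1156 in hippocampus, with overlap.

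Mmp17, which is held to the membrane by a lipid anchor, had 0, 13.3, 205 and 15.7 normalized counts in SCO, against 674, 485, 116, 395 and 672 in hippocampus. SCO replicate 3 lay above hippocampus replicate 3, and the other SCO libraries below all of hippocampus. The log2 fold change was -4.75 (SE 1.36, adjusted p = 0.0980 in limma), and it passed in 1 of the 9 fits with a library left out, at -6.01 without SCO replicate 3 (adjusted p = 0.0316 in limma). Without SCO replicate 1 it was -3.45 (adjusted p = 0.150 in limma), and DESeq2 gave -2.99 (adjusted p = 0.0832; adjusted p = 0.276 in edgeR). It was named after its values were seen, and the gene spans bases 129584169 to 129611099 of chromosome 5, plus strand.

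Mmp11, a stromelysin activated inside the cell by furin, had 1678, 941, 711 and 3661 in SCO and 1329, 1090, 977, 580 and 765 in hippocampus, with the highest value in SCO replicate 4 (adjusted p = 0.593 in limma). Per kb of exon it averaged 629 in SCO and 341 in hippocampus. Without SCO replicate 4 its SCO level per kb was 399.6, beside 419.8 for Mmp24 and 401 for Mmp2. As a share of the summed MMP level per kb, Mmp16 held 8.12% ± 1.91 in SCO and 21.01% ± 4.75 in hippocampus, and Mmp2 held 15.8% ± 2.12 in SCO and 8.87% ± 8.96 in hippocampus. Mmp8 was read in SCO replicate 3 (466) and hippocampus replicate 1 (215) and at 0 elsewhere. Mmp28 reached 264 in SCO replicate 1 and 575 in hippocampus replicate 5, and Mmp23 had 366, 0, 190 and 2.24 in SCO and 0, 1.65, 0, 0.366 and 45.7 in hippocampus. Mmp1b had 1 read in the 9 libraries and was not tested.

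**Figure D3:**
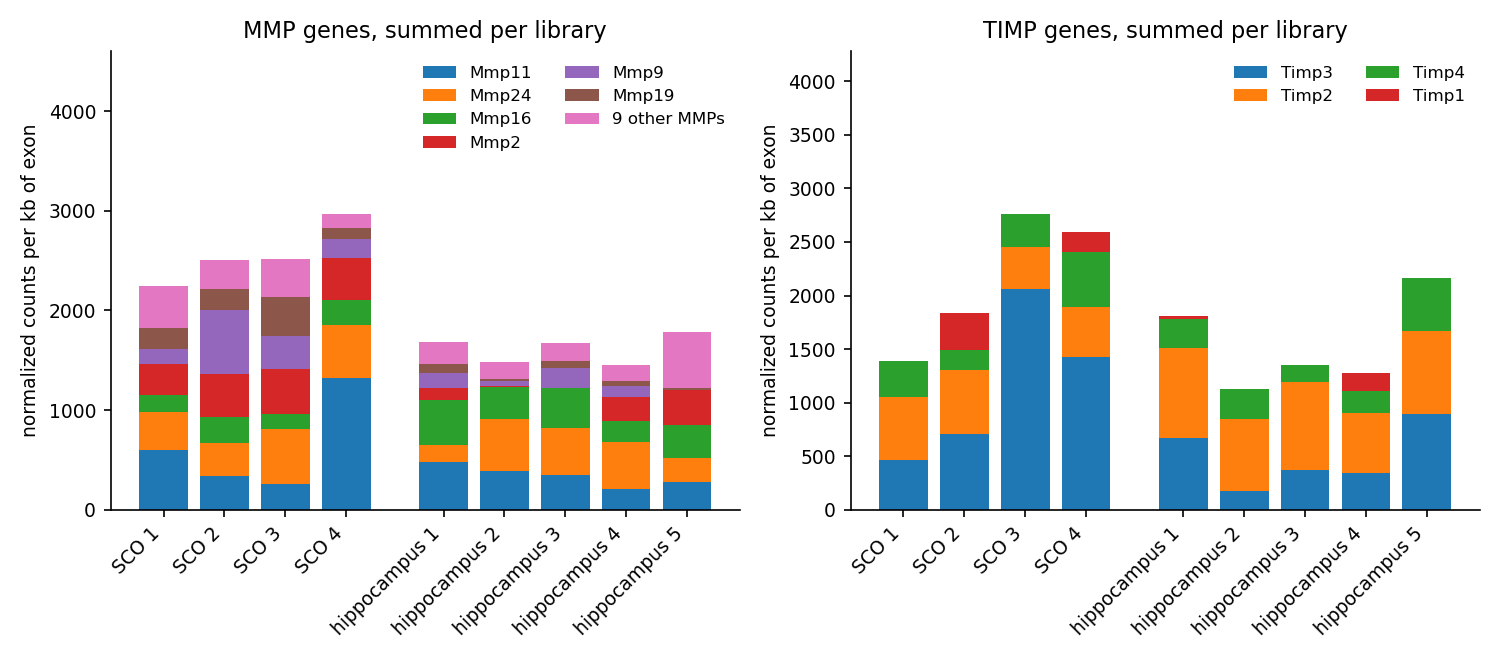
Normalized counts per kb of exon summed over the 15 MMP genes (left) and the 4 TIMP genes (right), 1 bar per library, with SCO libraries on the left and hippocampus libraries on the right. MMP bars run from 2246 to 2972 in SCO and from 1451 to 1783 in hippocampus, while TIMP bars overlap between the tissues.

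Among the inhibitors, Timp3, which binds the matrix and also blocks Adam17, had 3796, 5744, 16771 and 11624 normalized counts in SCO, against 5474, 1397, 3047, 2786 and 7272 in hippocampus. SCO replicates 3 and 4 lay above all hippocampus libraries and the other 2 within their range. The mean was 9484 ± 5889 in SCO and 3995 ± 2347 in hippocampus, a log2 fold change of 1.24 (SE 0.55, adjusted p = 0.311 in limma). Timp3 (ENSMUSG00000020044.13) spans bases 86300372 to 86349506 of chromosome 10, plus strand. Exons of Syn3 on the other strand overlap it by up to 1733 bases, and Syn3 had at least as many reads as Timp3 in 9 of 9 libraries, with 11128 ± 5977 in SCO and 5436 ± 2612 in hippocampus, so their reads cannot be told apart.

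Timp2, which also takes part in the activation of Mmp2 by Mmp14, had 2280, 2333, 1518 and 1805 in SCO, against 3258, 2630, 3196, 2181 and 3011 in hippocampus. The values were the least spread of the TIMPs, with 2 SCO libraries above hippocampus replicate 4. Its log2 fold change of -0.53 had a 95% interval of -1.10 to 0.04 (adjusted p = 0.362 in limma). Timp4, a TIMP of brain and heart, had 1977, 1125, 1864 and 3047 in SCO and 1582, 1628, 898, 1193 and 2926 in hippocampus (log2 fold change 0.31, 95% interval -0.60 to 1.22). Timp1, an inducible inhibitor, had 0, 300, 0 and 163 in SCO and 29.96, 3.30, 0, 154 and 0 in hippocampus, with 2 libraries of each tissue at 0.

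Shares of the summed TIMP level per kb were not tested, and they include the bases that Timp3 shares with Syn3. Timp3 held 50.4% ± 18.5 of it in SCO (n = 4) and 29.6% ± 10.1 in hippocampus (n = 5), and Timp2 held 26.7% ± 13.1 in SCO and 49.3% ± 10.9 in hippocampus. The ranges overlapped, with Timp3 between 33.6% and 74.5% in SCO and between 15.2% and 41.3% in hippocampus. Timp2 lay above Timp3 per kb in SCO replicate 1, and Timp3 above Timp2 in hippocampus replicate 5. Markers of pericytes and smooth muscle, 7 of 7 in the table and none at 0 in all libraries of a tissue, summed to between 10707 and 21393 in SCO and between 7006 and 18585 in hippocampus, and their part in the Timp3 level was not tested.

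**Figure D4:**
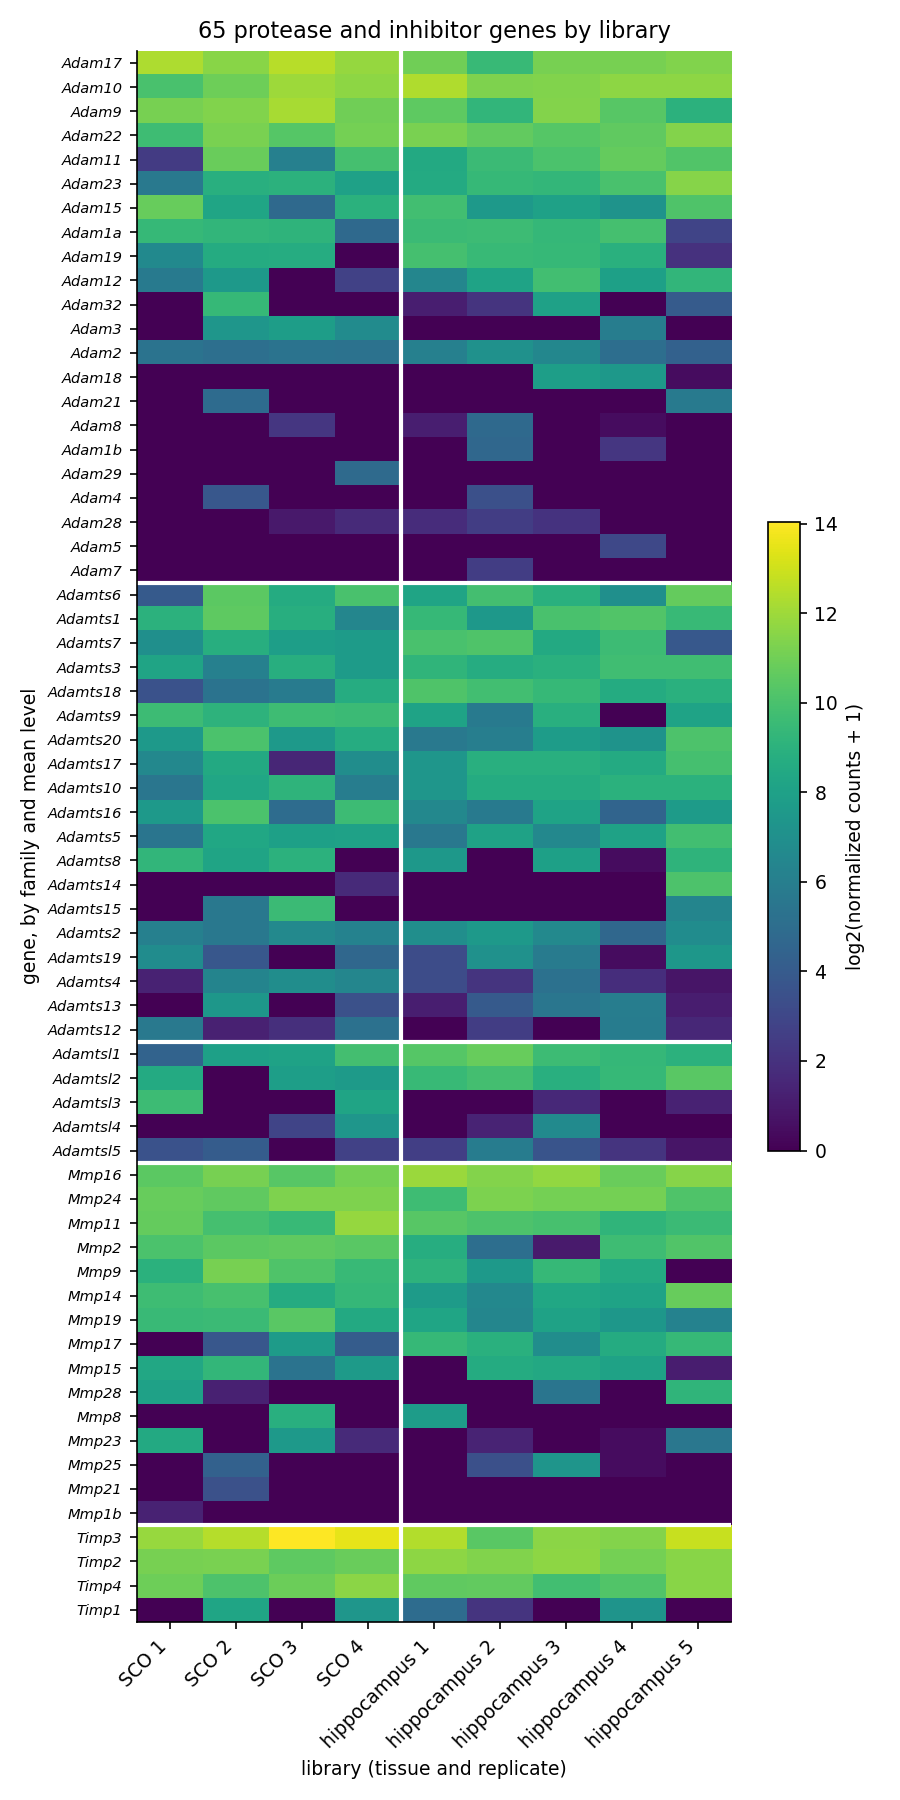
Log2(normalized counts + 1) of all 65 members, 1 row per gene ordered by family and mean level and 1 column per library, SCO libraries on the left of the white line and hippocampus libraries on its right. Many genes switch between dark (0) and bright cells among libraries of the same tissue, as for Adamts14, Adamtsl3 and Mmp8.

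Exons of 17 members overlap those of another gene on the opposite strand, among them Mmp24 with BC029722 (637 bases), Timp4 with Syn2 (90 bases) and Mmp11 with Chchd10 (155 bases), and reads on the shared bases cannot be assigned to either strand.

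The spread within a tissue was wide for many members. Of the 53 members tested that reached 100 normalized counts in some library, 26 had, in SCO or in hippocampus, a library at or under 3 reads beside one at 100 or more, which is 49.1%. The share over all 21572 genes tested that reached 100 was 34%. Within SCO it was 19 members, 35.8%, against 21.7% of all such genes, and within hippocampus 14 members, 26.4%, against 20.7%. A library without a read of a gene allows up to 3 reads, a limit for counting error only. Of the 65 members, 31 had reads in all 9 libraries.

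Genes that activate, inhibit or are cut by these proteases were described from 5 lists. Of 88 list members tested, 5 rose and 2 fell in limma-trend, where 3.05% of all genes tested passed, 1.71% higher and 1.34% lower in SCO. The 5 include Sspo, also an SCO marker above, whose rise follows from the tissue taken. Whether these proteases cut its protein was not tested. The median log2 fold change over the 88 genes was -0.16, against -0.04 for all genes.

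In the list of activation and membrane control, 1 of 15 rose and 0 fell, with a median of 0.31. The gene that rose was Tspan15, a tetraspanin that carries Adam10 to the cell surface, with 8113, 5714, 3326 and 4828 normalized counts in SCO, against 1458, 1057, 402, 482 and 982 in hippocampus. All SCO libraries lay above all hippocampus libraries, and the log2 fold change was 2.74 (SE 0.45, adjusted p = 0.00880 in limma), and none of the 9 fits with a library left out ended the call. The convertase gene Furin, which cuts the propeptides of many of these enzymes, had 123 ± 141 in SCO and a mean of 354 in hippocampus (adjusted p = 0.347 in limma). Basigin (Bsg), an inducer of MMPs, had a mean of 38456 in SCO and 30826 in hippocampus (adjusted p = 0.443 in limma).

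In the plasminogen system, 2 of 7 rose and 0 fell, with a median of -0.37. Serpine2, the protease nexin that inhibits thrombin and the plasminogen activators, had 64481, 96802, 117962 and 78276 normalized counts in SCO, against 16085, 11975, 16506, 18600 and 19228 in hippocampus. The mean was 89380 ± 23204 in SCO and 16479 ± 2850 in hippocampus, a log2 fold change of 2.42 (SE 0.21, adjusted p = 0.000314 in limma), and the call held in each of the 9 left-out replicates. Plat, the tissue plasminogen activator, had 20542, 19885, 39487 and 26471 in SCO, against 9757, 2544, 7423, 9693 and 11651 in hippocampus. All SCO libraries lay above all hippocampus libraries (log2 fold change 1.81, SE 0.43, adjusted p = 0.0499 in limma), yet 8 of the 9 left-out replicates, all but hippocampus replicate 2, ended the call (adjusted p up to 0.134), as did edgeR (adjusted p = 0.0768).

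**Figure D5:**
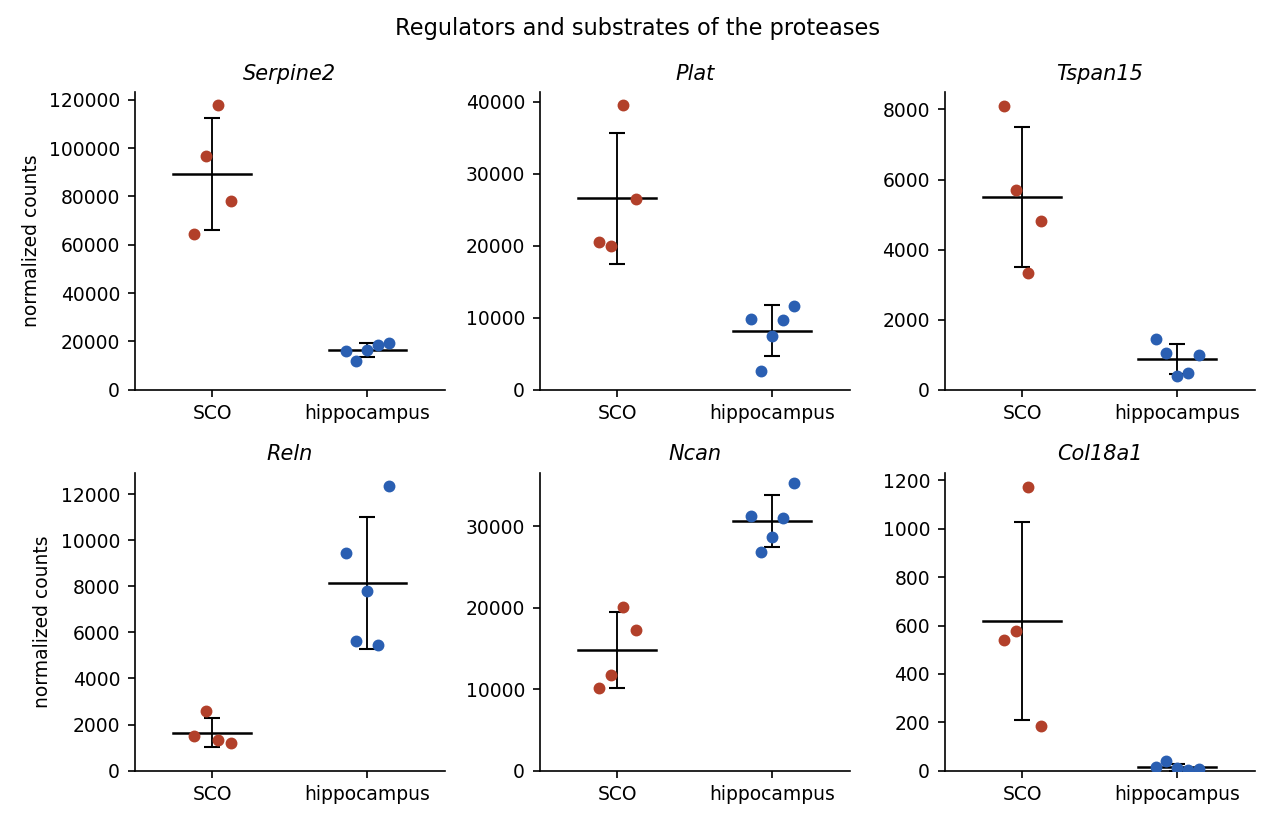
Normalized counts of 6 called genes of the lists in each library, with SCO on the left and hippocampus on the right; points are libraries, horizontal lines means and bars SD (n = 4 and 5). Serpine2, Plat, Tspan15 and Col18a1 lie higher in every SCO library than in any hippocampus library, and Reln and Ncan lie lower.

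Among matrix substrates, 2 of 29 rose and 2 fell, with a median of -0.90. Reln, the secreted protein that Adamts3 cuts, fell: it had 1483, 2577, 1336 and 1212 normalized counts in SCO, against 9455, 5616, 7816, 5474 and 12350 in hippocampus (log2 fold change -2.30, SE 0.33, adjusted p = 0.00443 in limma). Ncan, the proteoglycan neurocan, fell to 14829 ± 4700 in SCO, against 30610 ± 3184 in hippocampus (log2 fold change -1.10, SE 0.22, adjusted p = 0.0246 in limma), and 6 of the 9 fits with a library left out ended the call (adjusted p up to 0.0739; it held without SCO replicate 3 or 4 or hippocampus replicate 2), as did edgeR (adjusted p = 0.0588). Col18a1, a collagen of basement membranes, rose, with 540, 579, 1172 and 184 in SCO, against 13.7, 39.6, 12.4, 2.93 and 6.09 in hippocampus (log2 fold change 5.44, SE 0.95, adjusted p = 0.0129 in limma), a call that ended without SCO replicate 3 (adjusted p = 0.0517). Endothelial markers, 8 of 8 in the table and none at 0 in all libraries of a tissue, summed to between 19571 and 23505 in SCO and between 11275 and 22817 in hippocampus, and their part in Col18a1 was not tested. The other riser was Sspo, which encodes SCO-spondin and by which the tissue is known.

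In the list of shed ligands and membrane substrates, 0 of 28 passed (median -0.17), with 7 at an unadjusted p under 0.05, 3 higher and 4 lower in SCO (15.5% of all genes, 8.33% higher and 7.14% lower), and DESeq2 called 3 (12.6% of all genes). App, a substrate of Adam10, had a mean of 14788 in SCO and 23155 in hippocampus (adjusted p = 0.402 in limma), and Notch1 had 568 in SCO and 606 in hippocampus (adjusted p = 0.868 in limma). In the list of astacins and other secreted metalloproteases, 0 of 9 passed (median 1.02), with 1 at an unadjusted p under 0.05 (15.5% of all genes), and DESeq2 called 1 (12.6% of all genes).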

How the data were processed

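RNA of 4 SCO and 5 hippocampus samples from P0 mice was measured by bulk RNA sequencing. Per the labels, RNA was taken with the RNeasy Micro Kit and libraries were made with the TruePrep DNA Library Prep Kit. GRCm38 was the build, and FastQC, HISAT, HISAT2, featureCounts and DESeq2 were the tools, per the submitters' processing notes. The sources used here give no versions, annotation or strand setting. The deposited library columns are a normalized signal, read counts divided by 1 size factor per library. The authors' own comparison was deposited as log2 fold changes with standard errors, a statistic given as a score, p-values and adjusted p-values. Those columns were used only where the authors' table is named.

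Values within a library step by the worth of 1 read, and dividing by it returned whole reads for 100% of them (tolerance 1e-06). Tissues were compared with limma-trend after log2(value + 1), so with a pseudocount of 1, and genes were kept where either tissue averaged 1 or more. Fold changes are SCO minus hippocampus on that scale. They look smaller for low genes. Libraries at 0 in the lower tissue can push them beyond the log2 ratio of means, as for Adamts9. Libraries at 0 in the higher tissue can hold them short of it, as for Adamtsl3 (3.86, ratio of means 375.9). For Adam32 the log2 fold change was -0.72 although the ratio of means was 3.01. Values per kb use the union of GENCODE M21 exons, and 64 of the 65 members matched it by versioned identifier. Alternatives were edgeR and DESeq2 on the recovered reads, other pseudocounts and filters, robust variance moderation, the replicate number as a block and left-out libraries. Only the limma-trend test was run on simulated counts as a check, with the outcome not given here, and edgeR and DESeq2 were not checked this way. Columns of other series numbered 0.

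The members, lists and tests were chosen with earlier results of these data known. Members were named when called, when a TIMP, when one of Adam10, Adam11, Adam17, Adam22, Adam23, Mmp2, Mmp9 and Mmp14, when among the 3 highest per kb in a class, or when the tissues did not overlap and the log2 fold change was at least 1 in size. Up to 4 called genes of each list were also named. Adam12, Adam18, Adamts4 and Mmp17, and some list genes that were not called, were named after their values were seen. The fits ran in R 4.3.3 (DESeq2 1.42.0, edgeR 4.0.16, limma 3.58.1), and figures were drawn with matplotlib 3.10.9 in Python 3.11.15.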

Additional observations from a re-analysis of the deposited data

Results flagged for a closer look

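Among the members named, 18 of 82 groups of libraries (a gene in a tissue) held 1 library farther from the others than Dixon's 95% limit on log2(value + 1). In 7 of them all other libraries were at 0, where a single read is enough, so the chance rate of about 1 in 20 does not apply to these groups. In SCO these were Adam1a in replicate 4 (26.9 normalized counts), Adam3 in replicate 1 (0), Adam32 in replicate 2 (685), Adamts14 in replicate 4 (2.24), Adamts4 in replicate 1 (1.49), Adamts8 in replicate 4 (0), Adamtsl2 in replicate 2 (0), Mmp1b in replicate 1 (1.49), Mmp28 in replicate 1 (264) and Mmp8 in replicate 3 (466). In hippocampus they were Adam17 in replicate 2 (698), Adam1a in replicate 5 (6.47), Adam3 in replicate 4 (61.4), Adamts14 in replicate 5 (1107), Adamts7 in replicate 5 (13.7), Mmp23 in replicate 5 (45.7), Mmp8 in replicate 1 (215) and Mmp9 in replicate 5 (0). Hippocampus replicate 5 held 5 of the 8 hippocampus flags, at a depth of 143312271 reads.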

How the results depend on the processing

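Of the 40 named members that were tested, none changed direction or side of the threshold with a pseudocount of 0.5, no filter, a mean of at least 10 over all libraries or robust variance moderation. The number of members called was 0, 5 in DESeq2, 1 without both hippocampus replicate 2 and SCO replicate 4, and between 0 and 1 with 1 library left out. Over all genes it was 859, 503 in edgeR, 2706 in DESeq2 and between 498 and 1077 with 1 library left out. The plasminogen list had 1 call in place of 2 with pseudocounts of 0.5 and 5, without the filter, in edgeR and with robust moderation, and between 1 and 2 with 1 library left out. DESeq2 called 1 gene of the astacin list and 3 of the shed ligands. The shed ligands had 1 call without both libraries and between 0 and 1 with 1 left out.

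Of the 63 members tested, 18 had another sign with a library left out, 5 of 63 in edgeR and 5 of 63 in DESeq2. Of the 40 named members, 9 reversed under some alternative. With 1 library left out, the log2 fold change ran from -1.46 to 1.00 for Adam1a, -0.50 to 0.01 for Adam22, -3.08 to 0.52 for Adam32, -1.22 to 0.15 for Adamts1, -1.37 to 0.80 for Adamts6, -2.49 to 0.98 for Mmp28, -1.55 to 2.22 for Mmp8 and -0.41 to 2.33 for Timp1. Without both libraries it was 1.34 for Adam1a and -0.31 for Timp1. Adam32 was at 0.01 with a pseudocount of 5, 1.52 in edgeR and 1.59 in DESeq2, and Adamts6 at 0.03 in edgeR and 0.06 in DESeq2. The cause was not tested.

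The labels do not say that a shared number marks a shared animal or day. The correlation of deviations was between -0.0289 and 0.0189 for samples with the same replicate number. A second number in the titles is shared by SCO replicate 2 with hippocampus replicate 2 (-0.0248) and by SCO replicate 3 with hippocampus replicate 4 (0.0569). The value 0.0569 was the highest of all pairs of an SCO and a hippocampus library. As the labels name no pairs, the samples were not treated as pairs, and a block by the title number was not fitted. With the replicate number as a block, 1 gene was called over all genes and 0 in the lists of activation, plasminogen and matrix substrates, and the log2 fold change was 0.42 for Adamts14 and 0.98 for Mmp28.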
